A study of Arabidopsis thaliana with 12 samples.

Results

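The genes DML1, SDG25 and GCT encode long nuclear regulators of Arabidopsis thaliana, and each is covered by 1 of the 1919 putative enhancer windows, of 3000 bases, over which RNA was measured on both strands. They are enhancer_000701 (DML1), enhancer_001717 (SDG25) and enhancer_000323 (GCT) in the deposited tables. These 3 windows, read on the strand of the gene, were selected on a measured value, an excess of ribo-minus over poly(A)+ signal, among windows in long genes of nuclear regulators, so that excess is given as a description and is not tested here. All seedlings were 7 days old and carried the same inducible RNA interference construct (RRP41-iRNAi), which targets the exosome gene RRP41. Induced seedlings (rrp41-i) were germinated and grown on 8 mM 17b-estradiol, per the labels, and uninduced seedlings of the same line, called RRP41 (WT), were their control. From the same total RNA of each of 3 biological replicates a ribo-minus library (ribosomal RNA depleted) and a poly(A)+ library were made, which gave 4 groups of 3 libraries, 12 in all. Effects of estradiol, of the induced construct and of RRP41 loss occur in the same libraries of a single line and cannot be told apart. No window covers RRP41 (0 of 1919), so how far RRP41 was reduced was not measured here.

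DML1, also called ROS1, is a DNA glycosylase that removes methylated cytosine from DNA and so opposes silencing by DNA methylation. SDG25, also called ATXR7, is a SET domain protein that methylates histone H3 and is needed for full activity of the flowering repressor FLC. GCT, also called MED13, belongs to the kinase module of Mediator, the complex that links transcription factors to RNA polymerase II, and times the patterning of the embryo. The RNA exosome degrades and trims RNA from its 3' end. Poly(A)+ libraries select RNA by its tail at the 3' end, while ribo-minus libraries also keep RNA without a tail.

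Each of the 3 windows held its gene and no other annotated gene, and lay towards the 5' end of that gene, far from its 3' end. The DML1 window (TAIR10, chr2:15313227-15316226) was centred 81 bases inside the annotated 5' end of the gene (AT2G36490, minus strand, 15307907 to 15314807). It held 1419 bases upstream of the gene, the first 4 of 21 exons and codons 1 to 287 of 1393. The SDG25 window (chr5:16959732-16962731) was centred 14 bases inside the 5' end of the gene (AT5G42400, minus strand, 16953515 to 16961245), with 1486 bases upstream, 3 of 19 exons and codons 1 to 259 of 1388. The GCT window (chr1:20638281-20641280) lay wholly within the gene (AT1G55325, plus strand, 20637333 to 20648434) and began 948 bases from its 5' end. It held 10 of 24 exons, codons 109 to 515 of 1906, and 59.3% of its bases were introns, against 14.2% for DML1 and 17.5% for SDG25. From the window midpoint to the 3' end of the gene the distance was 6819 bases for DML1, 7716 for SDG25 and 8654 for GCT.

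The sequences below, from the RefSeq TAIR10.1 assembly, show what kind of DNA these windows hold. For DML1 and SDG25 they are the 200 bases just before the annotated gene start (chr2:15314808-15315007 and chr5:16961246-16961445, both read on the minus strand). They are a part of the upstream side of each window, which is 1419 bases long at DML1 and 1486 at SDG25. For GCT they are the 200 bases at the window centre (chr1:20639681-20639880, plus strand). Capitals mark a TATAAA motif in SDG25 and the coding bases in GCT.
DML1: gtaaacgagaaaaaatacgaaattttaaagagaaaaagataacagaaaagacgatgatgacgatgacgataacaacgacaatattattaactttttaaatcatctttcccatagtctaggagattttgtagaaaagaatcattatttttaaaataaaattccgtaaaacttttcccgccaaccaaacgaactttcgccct
SDG25: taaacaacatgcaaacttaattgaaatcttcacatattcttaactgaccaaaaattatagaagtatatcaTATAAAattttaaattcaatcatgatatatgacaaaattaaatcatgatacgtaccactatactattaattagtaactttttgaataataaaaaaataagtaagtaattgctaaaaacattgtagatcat
GCT: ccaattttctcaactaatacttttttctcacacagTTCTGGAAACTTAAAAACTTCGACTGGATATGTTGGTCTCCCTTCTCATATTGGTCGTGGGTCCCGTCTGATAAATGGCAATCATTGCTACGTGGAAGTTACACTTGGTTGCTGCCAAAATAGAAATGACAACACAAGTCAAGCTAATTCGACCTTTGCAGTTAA
The stretch before DML1 had 30% G and C and the stretch before SDG25 20.5%, while the GCT stretch had 39.5%. Both strands of the first 2 stretches were searched for the TATA box (TATAAA), the CCAAT box (CCAAT), the telo-box (AAACCCTA), the site II element (TGGGCC) and the G-box (CACGTG). Only the TATA box was found, before SDG25 and 130 bases upstream of the start, and 41.0% of the 27443 protein-coding genes hold it on either strand in the same 200 bases. The GCT stretch crosses the end of an intron (35 bases, lower case, ending in ag) into a coding exon (165 bases), so the window spans introns and exons. Whether RNA over introns counts in the deposited signal is not given.

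**Figure D1:**
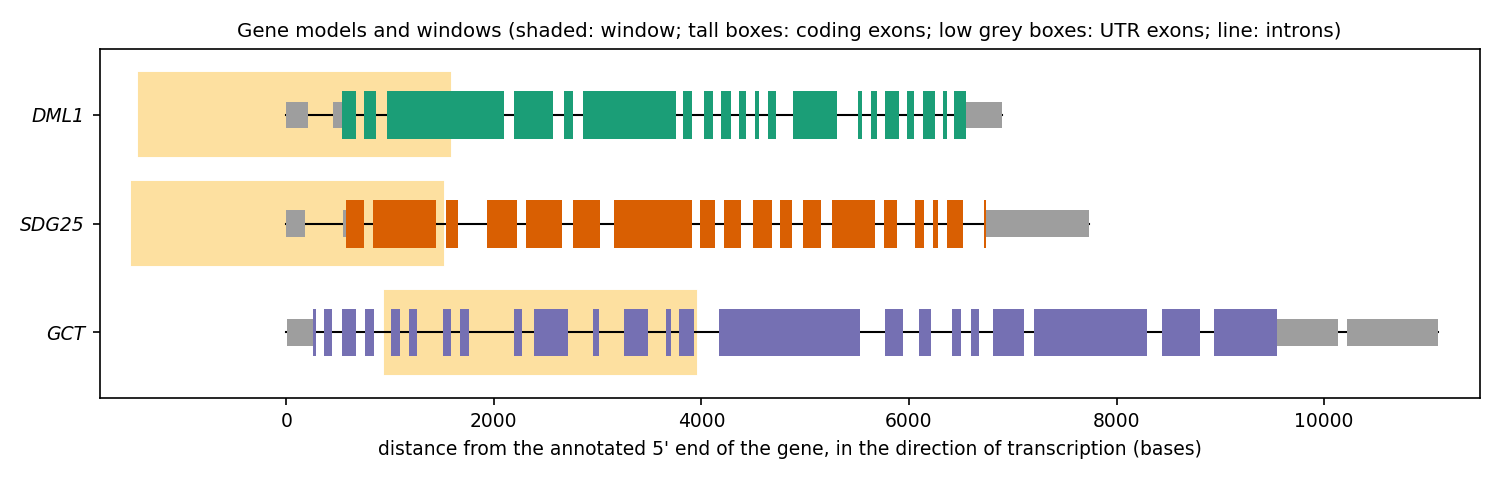
Gene models of DML1, SDG25 and GCT drawn from the annotated 5' end (distance in bases, in the direction of transcription), with coding exons as tall boxes, UTR exons as low grey boxes, introns as lines and the measured window shaded. The windows of DML1 and SDG25 are centred on the 5' end, 81 and 14 bases inside the gene, and that of GCT starts 948 bases inside it.

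Values are the deposited signal of each window and strand, in whole numbers, and read numbers are unknown. Total signal over all windows was 18738150 to 31455657 in ribo-minus libraries and 55804893 to 58489785 in poly(A)+ ones. The smallest value above 0 differed between libraries, from 107 to 1005, a 9.39-fold range of detection limits. Uninduced ribo-minus replicate 1 has equal values on the 2 strands of 100% of windows, and its strands were thus not separated. Its gene-strand value was a median 0.469 of the mean of replicates 2 and 3 over 1006 windows with genes on 1 strand, so the values of the 3 genes in uninduced ribo-minus RNA and their changes after knockdown are given with and without it. Genes of photosynthesis, which would mark the shoot, had no window (0 of 13 listed), and of 12 listed root genes ESB1 and PIN2 did, so the tissue could not be checked further.

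All 3 windows carried signal on the gene strand in all 12 libraries. Their group means lay above those of 63.4% to 75.8% of the 3600 strands tested in ribo-minus libraries and of 40.9% to 49.9% in poly(A)+ libraries. At DML1 most induced libraries were lower than the uninduced ones in both RNA fractions. In ribo-minus RNA it held 2273, 2188 and 4131 in the induced replicates 1 to 3, against 3821, 5984 and 7739 in the uninduced ones, of which 3821 is from the library with unseparated strands. In poly(A)+ RNA it held 1034, 852 and 1337 in induced replicates, against 2107, 1763 and 2675 in uninduced ones. The induced and uninduced poly(A)+ values did not overlap, and the ribo-minus values overlapped through the unseparated library alone.

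The SDG25 window held more signal in every ribo-minus library than in any poly(A)+ library. In induced seedlings it had 4085, 5224 and 5920 in ribo-minus libraries, against 845, 1611 and 1080 in poly(A)+ libraries. In uninduced seedlings it had 2386, 4446 and 4994 in ribo-minus libraries, with 2386 from the unseparated library, against 677, 1407 and 1574 in poly(A)+ libraries. Induced and uninduced values overlapped in both fractions.

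The GCT window showed the same order of fractions in induced seedlings, with 6320, 5895 and 5239 in ribo-minus libraries against 1523, 1303 and 1408 in poly(A)+ libraries. In uninduced seedlings it had 2534, 6753 and 5202 in ribo-minus libraries, with 2534 from the unseparated library, against 2587, 824 and 1305 in poly(A)+ libraries. The fractions overlapped in uninduced seedlings through the unseparated ribo-minus library and poly(A)+ replicate 1. The poly(A)+ values of the 3 windows were 1.88 to 8.90 times the smallest value above 0 of their library, near the detection limit. Uninduced ribo-minus values were near it too, at 4.42 to 9.85 times the smallest value. Induced ribo-minus values were at 2.93 to 8.14 times in replicate 1 and at 20.4 to 55.1 times in replicates 2 and 3.

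**Figure D2:**
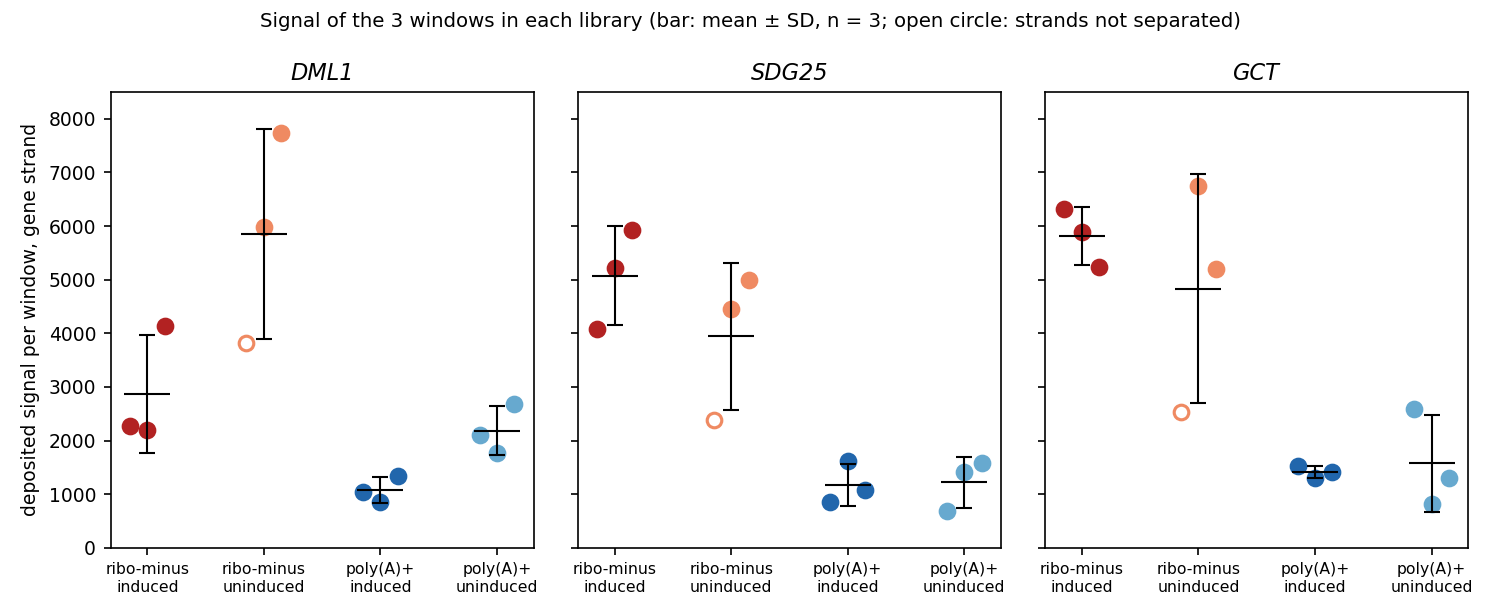
Deposited signal per window on the gene strand (y axis) in each library of the 4 groups (x axis) for DML1, SDG25 and GCT; bars are mean ± SD (n = 3) and open circles the library with unseparated strands. DML1 is at 852 to 1337 in induced and 1763 to 2675 in uninduced poly(A)+ libraries, while the groups of SDG25 and GCT overlap between induced and uninduced seedlings.

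As the choice of the windows requires, ribo-minus signal exceeded poly(A)+ signal at all 3 genes, and the size of the excess is a description. In induced seedlings the mean at SDG25 was 5076 ± 926 in ribo-minus libraries, against 1179 ± 392 in poly(A)+ libraries (SD, n = 3 each), a ratio of 4.31. At GCT it was 5818 ± 545 in ribo-minus against 1411 ± 110 in poly(A)+ libraries, a ratio of 4.12. At DML1 it was 2864 ± 1098 in ribo-minus against 1074 ± 245 in poly(A)+ libraries, a ratio of 2.67. In induced seedlings every ribo-minus library lay above every poly(A)+ library at each of the 3 genes, as at 2.14% of all 3600 tested strands.

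In uninduced seedlings the mean at DML1 was 5848 ± 1963 in ribo-minus against 2182 ± 461 in poly(A)+ libraries, a ratio of 2.68. At SDG25 it was 3942 ± 1375 in ribo-minus against 1219 ± 477 in poly(A)+ libraries (ratio 3.23). At GCT it was 4830 ± 2134 in ribo-minus against 1572 ± 911 in poly(A)+ libraries (ratio 3.07). Without the unseparated library the ratios were 3.15, 3.87 and 3.80 in the same order of genes. Every uninduced ribo-minus library lay above every uninduced poly(A)+ library at DML1 and SDG25, as at 4.03% of all strands. The uninduced fractions overlapped at GCT.

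Ribo-minus and poly(A)+ libraries of the same replicate came from the same total RNA, so the ratio can also be read within each pair. At DML1 it ran from 2.198 to 3.09 over the 3 induced and from 1.81 to 3.39 over the 3 uninduced pairs. At SDG25 it ran from 3.24 to 5.48 induced and from 3.16 to 3.52 uninduced. At GCT it ran from 3.72 to 4.52 induced, and was 0.980, 8.20 and 3.99 in uninduced pairs 1 to 3, where pair 1 holds the unseparated library. Ribo-minus was thus higher in every pair of each gene but that GCT pair.

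As deposited, ribo-minus signal was the lower one in most windows, and the total signal of ribo-minus libraries was lower too. On the log2(value + 1) scale the median of 3600 strands was −1.34 in induced and −1.50 in uninduced seedlings, that is, lower in ribo-minus RNA. In induced seedlings SDG25 was at 2.14 ± 0.47 (SE), GCT at 2.04 ± 0.46 and DML1 at 1.37 ± 0.42, which placed them 238th, 246th and 260th from the highest. In uninduced seedlings SDG25 was at 1.71 ± 0.47, GCT at 1.67 ± 0.46 and DML1 at 1.38 ± 0.42, placed 394th, 410th and 473rd. Without the unseparated library the uninduced differences were 2.04 (SDG25), 2.07 (GCT) and 1.66 (DML1), placed 121st, 114th and 153rd of 3482. Of all strands, 14.25% were above 0 in induced, 27.1% in uninduced and 9.44% in both kinds of seedlings (15.8% in uninduced seedlings without that library). This share depends on the scaling. With median-ratio scaling of the libraries the median of all strands was 0.04 in induced and 0.03 in uninduced seedlings, and 52.1% and 50.9% were above 0. The strands called at the threshold were 28 higher and 1488 lower in induced seedlings as deposited, against 256 and 256 with scaling, and 46 and 1493 in uninduced seedlings, against 452 and 497. With scaling the 3 genes were placed 149th to 236th in induced and 375th to 424th in uninduced seedlings.

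The 3 windows also share a long distance from the 3' end of the gene, which long genes allow, and long genes were part of the choice. The genes are 6901 (DML1), 7731 (SDG25) and 11102 bases (GCT) long, longer than 98.1%, 98.8% and 99.7% of 27444 protein-coding genes. Distance was set against the fraction difference over 330 windows that hold a single protein-coding gene and have a mean signal of at least 1005, the highest detection limit of any library. These 330 were ranked by the lower of their induced and uninduced log2 differences. Nearest to 0 by that value were AT2G21850 (0.07 induced, 0.00 uninduced) and CLC-B (0.06, 0.10) just above 0. Just below 0 were UGT80B1 (0.20, −0.04) and AT1G52750 (−0.00, 0.19). The classes of distance were chosen after values had been seen. Among the 85 windows centred at or beyond the 3' end, the median log2 difference of ribo-minus over poly(A)+ signal was −1.60 in induced and −1.82 in uninduced seedlings. It was −1.57 and −1.87 for the 93 windows up to 1000 bases from the 3' end, and −1.25 and −1.38 for the 42 at 1000 to 2000 bases. It was −0.41 and −0.70 for the 74 windows at 2000 to 4000 bases. The sign turned for the 26 windows at 4000 to 6000 bases, with medians of 0.52 induced and 0.48 uninduced and 22 of 26 above 0 in each. All 10 windows more than 6000 bases from the 3' end were above 0, with medians of 2.096 induced and 1.70 uninduced, and this class holds few windows, DML1, SDG25 and GCT among them. With the mean of each fraction at or above 1005, 18 of 22 windows at 4000 to 6000 bases were above 0 (medians 0.44 induced and 0.44 uninduced). Beyond 6000 bases 6 of 6 were (medians 1.71 and 1.53), with DML1, SDG25 and GCT among them. The windows so left out of these classes had passed the limit on signal through ribo-minus RNA alone. Without the unseparated library the uninduced medians of all 330 windows ran from −1.47 at or beyond the 3' end to 2.06 beyond 6000 bases. With median-ratio scaling the order of the classes was the same, but medians lay above 0 from 1000 bases on (0.14 induced and 0.18 uninduced at 1000 to 2000 bases, 3.49 and 3.26 beyond 6000 bases), so the place where the sign turns depends on the scaling.

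The other 7 windows of that class cover 6 genes, with differences of 0.63 to 3.76 (median 2.18) in induced and 0.34 to 6.14 (median 1.799) in uninduced seedlings on the same log2 scale. They include EMB3142 (2.05 induced, 1.799 uninduced), the maintenance DNA methyltransferase gene MET1 (0.63, 0.34), the protease gene DEG7 (0.72, 0.52) and a pair of windows in AT1G67120, the MIDASIN 1 gene. The highest value, 6.14 at AT1G67120, rests on a poly(A)+ mean of 313 in uninduced seedlings. That mean is within the range of detection limits of the uninduced poly(A)+ libraries (228 to 353). This window and 3 more of the 7 had a poly(A)+ mean under 1005 and passed the limit on signal through ribo-minus RNA alone. The 3 windows with both fractions at or above 1005 (EMB3142, MET1 and DEG7) ran from 0.63 to 2.05 in induced and from 0.34 to 1.799 in uninduced seedlings.

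Across the 330 windows Spearman's rho between distance to the 3' end and the log2 difference was 0.721 in induced and 0.696 in uninduced seedlings, and 0.677 in uninduced seedlings without the unseparated library. Over the 316 windows with both fractions at or above 1005 it was 0.703 induced and 0.677 uninduced. Both sets hold DML1, SDG25 and GCT, which were chosen for an excess of ribo-minus signal in long genes, so rho is a description. For gene length rho was 0.218 induced and 0.176 uninduced, and for the share of the window in introns it was 0.217 and 0.190. For mean signal it was −0.421 and −0.583. These windows share the same 12 libraries, and windows far from the 3' end also had less signal (median of the mean signal 2962 beyond 6000 bases, 14117 at or beyond the 3' end). Among windows with a mean signal of up to 8000 the same order of medians held. They ran from −1.60 induced and −1.48 uninduced (30 windows at or beyond the 3' end) to 2.14 and 1.71 (9 windows beyond 6000 bases). These 9 include DML1, SDG25 and GCT, chosen for ribo-minus above poly(A)+ signal, and both of their medians are the values of SDG25. That class is thus a description and no separate check. The part of position or library preparation in the fraction difference was not tested.

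**Figure D3:**
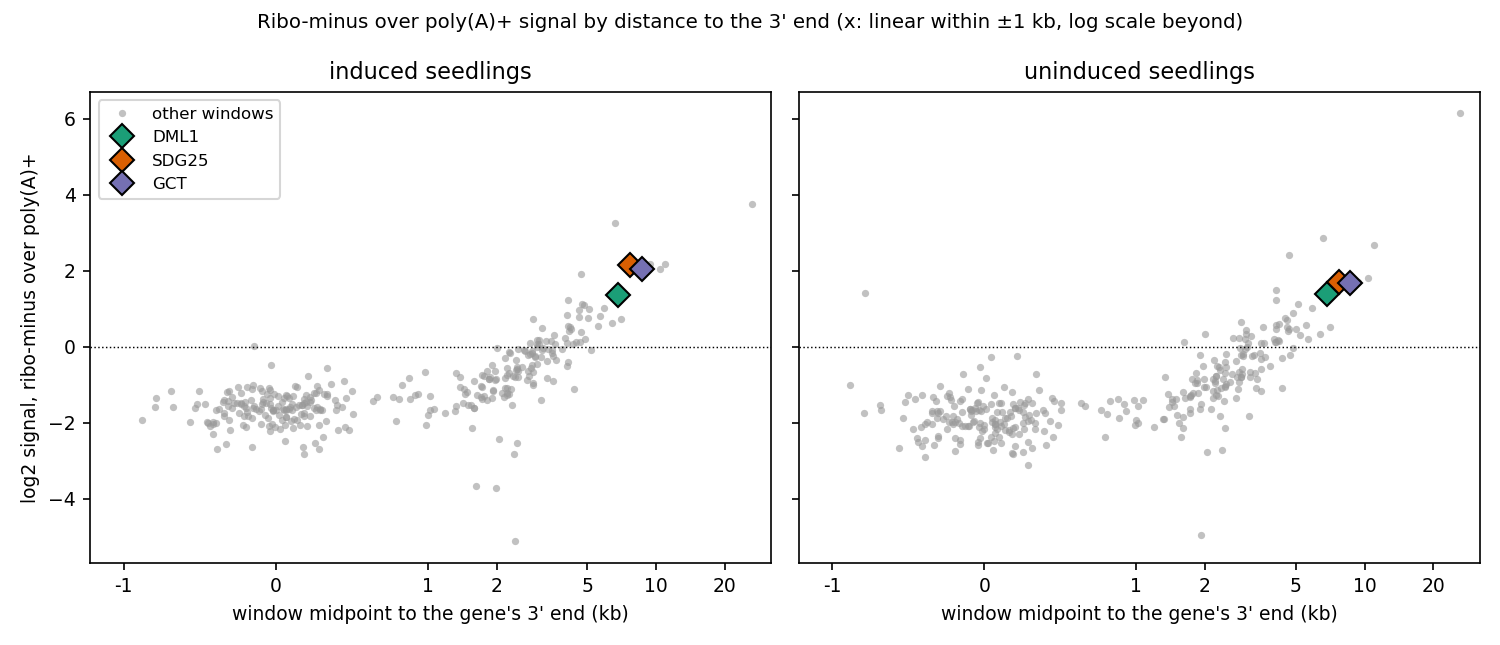
Log2 difference of ribo-minus over poly(A)+ signal (y axis) against the distance from the window midpoint to the gene's 3' end (x axis, kb; linear within 1 kb of 0 and logarithmic beyond) in induced (left) and uninduced (right) seedlings; grey points are other windows with a single protein-coding gene. DML1, SDG25 and GCT, at 6819, 7716 and 8654 bases, lie among the windows above 0 at the far right of the axis.

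DML1, SDG25 and GCT have 1 window each, so the same gene could not be read at both ends. Other genes had 2 separate windows, and in 6 of 6 the window farther from the 3' end had the higher ribo-minus over poly(A)+ difference, in induced and in uninduced seedlings. The median of farther minus nearer was 2.17 induced and 2.37 uninduced on the log2 scale, with a range of 0.73 to 2.78 induced and 0.07 to 3.45 uninduced. Both windows of AT1G67120 and 1 of TES had a poly(A)+ mean under 1005, and without these the direction was the same in 4 of 4 genes, by 0.73 to 2.78 induced and 0.07 to 2.47 uninduced. At MET1 the window at the 5' end, 6402 bases from the 3' end, was at 0.63 and the window at the 3' end at −2.15 in induced seedlings. The window at the 5' end of MET1 held 1823 in ribo-minus RNA against 1193 in poly(A)+ RNA, while the one at the 3' end held 3426 in ribo-minus RNA against 14435 in poly(A)+ RNA (means of 3 induced libraries). CCT, the partner of GCT in the kinase module of Mediator (MED12), has neighbouring windows that overlap. Its window 3289 bases from the 3' end was at 0.14 induced and −0.22 uninduced, and the one 426 bases from the 3' end at −1.11 and −1.46.

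**Figure D4:**
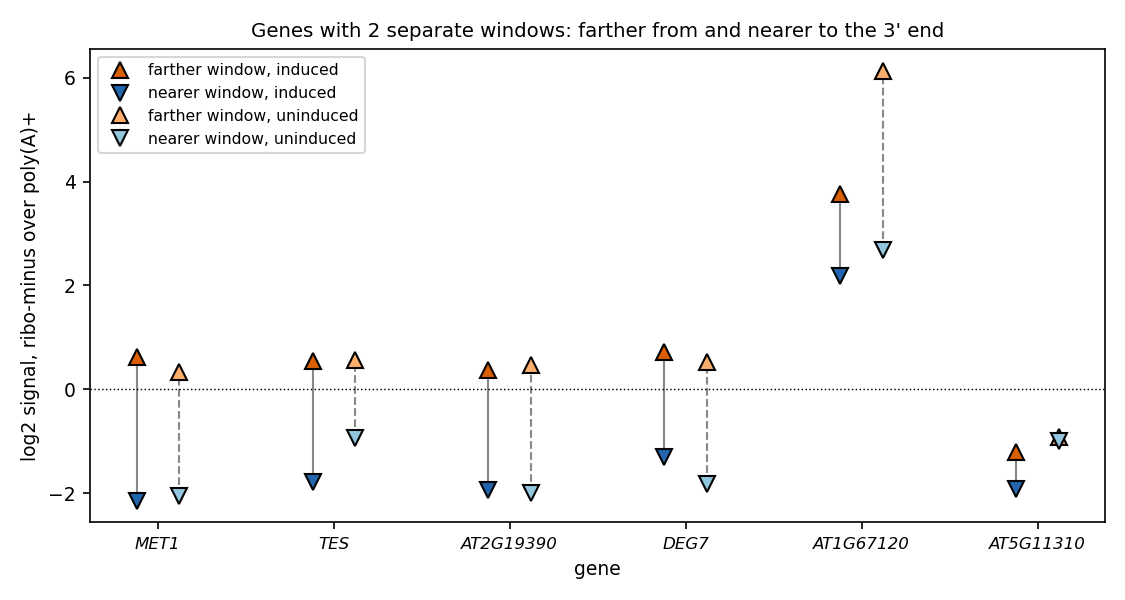
Log2 difference of ribo-minus over poly(A)+ signal (y axis) for the 6 genes with 2 separate windows (x axis); upward triangles are the window farther from the 3' end, downward triangles the nearer one, with induced seedlings on solid and uninduced on dashed lines. The farther window is higher in each gene, by 0.73 to 2.78 in induced and 0.07 to 3.45 in uninduced seedlings.

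The knockdown was not used to choose the windows and could be tested, with limma on log2(value + 1) over all strands. None of the 3 genes passed the threshold (adjusted p of 0.05) in poly(A)+ RNA, where 4.12% of 3297 strands did. None passed in ribo-minus RNA, where 0.155% of 3231 strands did. DML1 alone of the 3 had an unadjusted p under 0.05, in each fraction, as did 21.7% of all strands in poly(A)+ and 5.32% in ribo-minus RNA.

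DML1 came nearest. Its poly(A)+ mean of 1074 ± 245 in induced seedlings was 49.2% of the 2182 ± 461 in uninduced seedlings (SD, n = 3 each). The log2 change was −1.02 ± 0.29 (SE, 95% interval −1.71 to −0.34), with a limma adjusted p of 0.0905. All 3 induced libraries lay below all 3 uninduced ones, as at 16.0% of strands tested, and 7.04% of strands had a lower change. With every value below 1005 raised to 1005, a common detection limit, the change was −0.95 ± 0.24 (SE). It passed the threshold (limma adjusted p = 0.0328), as did 7.07% of strands in that direction. The limit of 1005 is that of a ribo-minus library, against 181 to 450 in induced poly(A)+ libraries, and it replaced the induced DML1 value of 852. Over all 15 alternatives the change was −1.19 to −0.87 and the adjusted p 0.0328 to 0.736.

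In ribo-minus RNA the DML1 mean was 2864 ± 1098 in induced seedlings, 49.0% of the 5848 ± 1963 in uninduced seedlings (SD, n = 3 each). The log2 change was −1.04 ± 0.44 (95% interval −1.94 to −0.13), with a limma adjusted p of 0.914. Without the unseparated library the uninduced mean was 6862 ± 1241 (n = 2), the induced mean 41.7% of it, and the log2 change −1.31 ± 0.33 (adjusted p = 0.161). The induced values then lay below both uninduced ones, as at 22.2% of strands. Groups that were lower without overlap in both fractions, as at DML1, were found at 7.24% of the 3093 strands tested in both.

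Whole seedlings were used, and fewer cells that contain an RNA and less RNA per cell cannot be told apart. The root gene ESB1, needed for the Casparian strip, fell in poly(A)+ RNA, with a mean of 4584 in induced and 9098 in uninduced seedlings (log2 change −0.98 ± 0.15, adjusted p = 0.0159). PIN2, an auxin exporter of the root, was at 1980 in induced and 1739 in uninduced seedlings (0.21 ± 0.37, adjusted p = 0.768). The part of tissue composition in the DML1 difference was not tested.

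SDG25 showed no detectable change, within wide limits. Its poly(A)+ mean was 1179 ± 392 in induced and 1219 ± 477 in uninduced seedlings (SD, n = 3 each). The log2 change was −0.01 ± 0.44 (adjusted p = 0.994), with a 95% interval from 0.486-fold to 2.03-fold. In ribo-minus RNA the mean was 5076 ± 926 in induced and 3942 ± 1375 in uninduced seedlings. The log2 change there was 0.42 ± 0.41 (adjusted p = 0.960; 0.736-fold to 2.42-fold), and 0.09 without the unseparated library.

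GCT showed no detectable change either, with intervals of similar width. Its poly(A)+ mean was 1411 ± 110 in induced and 1572 ± 911 in uninduced seedlings, with uninduced values spread over 824 to 2587. The log2 change was 0.00 ± 0.43 (adjusted p = 0.998, 0.496-fold to 2.02-fold). In ribo-minus RNA the mean was 5818 ± 545 in induced and 4830 ± 2134 in uninduced seedlings. The log2 change there was 0.38 ± 0.41 (adjusted p = 0.960; 0.724-fold to 2.33-fold), and it turned to −0.03 without the unseparated library.

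The change after knockdown was not shown to differ between the RNA fractions at any of the 3 genes. The difference of log2 changes, ribo-minus minus poly(A)+, was −0.01 ± 0.60 at DML1 (SE, adjusted p = 0.997) in a limma fit of all 12 libraries, which called 0.167% of 3600 strands. Its 95% interval ran from 0.413-fold to 2.39-fold. The difference was 0.43 ± 0.67 at SDG25 (adjusted p = 0.956). At GCT it was 0.38 ± 0.65 (adjusted p = 0.958). Without the unseparated library it was −0.29 ± 0.48 at DML1 (adjusted p = 0.888) and 0.10 ± 0.55 at SDG25 (adjusted p = 0.986), and at GCT it turned to −0.03 ± 0.53 (adjusted p = 0.999). Of the 10 windows more than 6000 bases from a 3' end, DML1 had the lowest change in both fractions. The other 7 ran from −0.64 to 3.01 in poly(A)+ and from −0.34 to 0.63 in ribo-minus RNA.

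**Figure D5:**
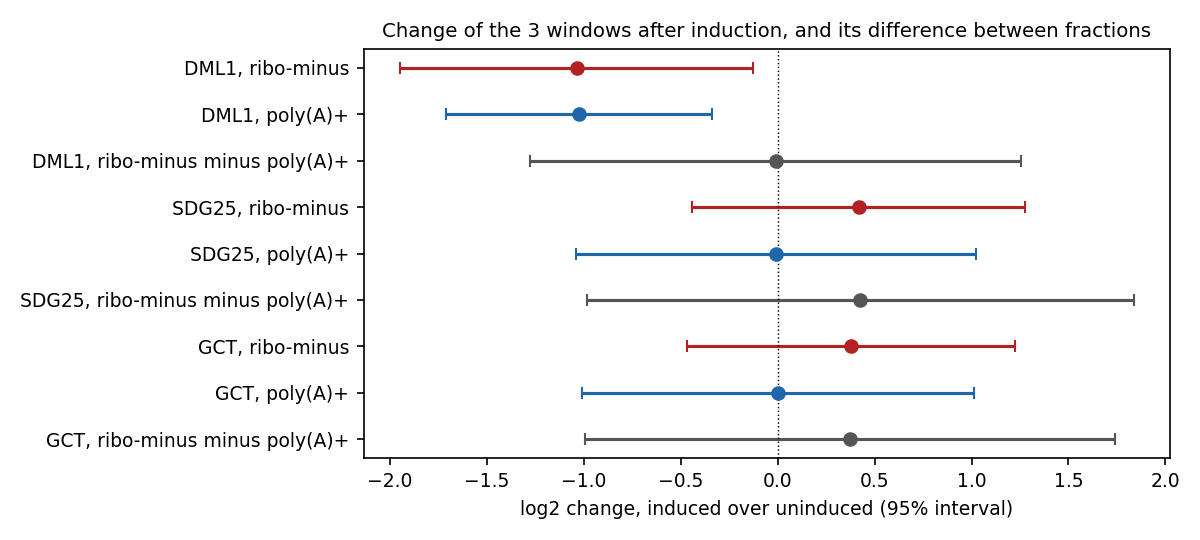
Log2 change of induced over uninduced seedlings (x axis; points with 95% intervals from limma) in ribo-minus RNA, in poly(A)+ RNA and their difference, for DML1, SDG25 and GCT (rows). The DML1 intervals lie below 0 in each fraction (adjusted p = 0.914 in ribo-minus and 0.0905 in poly(A)+ RNA), and the other 7 include 0.

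The opposite strand of the 3 windows, which was not chosen, was empty or close to the detection limit wherever strands were separated. At SDG25 it held 0, 143 and 238 in induced ribo-minus libraries, 0 in both separated uninduced ones and 0 in all 6 poly(A)+ libraries. At DML1 it held 0, 143 and 0 in induced ribo-minus libraries and 0 in both separated uninduced ones, with a single value above 0 in induced (346) and in uninduced (353) poly(A)+ libraries. At GCT it held 1035, 269 and 357 in induced ribo-minus libraries against 0 in both separated uninduced ones, and in poly(A)+ libraries 450, 181 and 0 induced against 0, 305 and 0 uninduced. The signal of these windows thus lay mostly on the gene strand. The detection limit of the separated uninduced ribo-minus libraries is 786 and 1005, so antisense RNA below that could not be seen there. The change at GCT missed the threshold in ribo-minus RNA without the unseparated library (limma log2 8.86 ± 2.32, adjusted p = 0.161), where both uninduced values are 0 and the size depends on the pseudocount. It also missed with that library, whose value of 2534 is the same on both strands (5.09 ± 3.87, adjusted p = 0.960), and in poly(A)+ RNA (2.69 ± 3.87, adjusted p = 0.726).

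Other nuclear regulators of the same kinds were taken from 4 lists (DNA demethylation, DNA methylation with its RNA-directed pathway, histone lysine methylation and Mediator) with 97 genes in all. Besides the 3 genes, 17 of them had a window, on 19 window strands. In limma, 0 of the 19 rose and 0 fell at the threshold after knockdown in poly(A)+ RNA, in ribo-minus RNA and in the interaction, while 5, 0 and 0 of them had an unadjusted p under 0.05, as had 21.7%, 5.32% and 3.11% of all strands. Their median log2 change was −0.13 in poly(A)+ RNA, against −0.03 over all strands, and 0.12 in ribo-minus RNA, against 0.20 over all strands. Ribo-minus exceeded poly(A)+ signal in 3 of the 19 in induced and in 2 of the 19 in uninduced seedlings, with medians of −1.11 and −1.56, against 14.25% and 27.1% of all strands with medians of −1.34 and −1.50. Without the unseparated library the uninduced share of all strands was 15.8% (median −1.44), and a count for the 19 without it is not given. Of 4 listed flowering genes, 0 had a window. DME, a demethylase of the same family as DML1, held 7264 in induced and 6035 in uninduced ribo-minus libraries, and 14430 in induced and 17562 in uninduced poly(A)+ libraries (means, n = 3 each). Its window shares the strand with a second gene. At SDG2, another histone methyltransferase, a window at the 3' end of its gene was at −1.04 induced and −1.56 uninduced (log2 of ribo-minus over poly(A)+). The Mediator windows other than that of GCT ran from −1.87 to 0.14 induced and from −2.003 to −0.22 uninduced.

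The patterns most like those of the 3 windows over the 11 libraries with separated strands were found by Pearson's r of log2(value + 1), among 1564 strands at or above 1005 in all libraries, and r is driven by the difference between fractions. For DML1 they were HA3, a plasma membrane proton pump gene (r = 0.861), the receptor kinase gene SRF8 (0.851) and the vacuolar channel gene TPC1 (0.836). For SDG25 they were TPC1 (0.942), EMB3142 (0.917) and HA3 (0.915). For GCT they were windows with several genes, over AT1G01320 and CNGC10 (0.971), AT5G09935 and ARLA1D (0.964), and AT5G07970 and AT5G07980 (0.963). Among the 3 windows r was 0.80 for GCT with SDG25, 0.689 for GCT with DML1 and 0.689 for DML1 with SDG25. The median r over the strands compared was −0.652 for DML1, −0.915 for SDG25 and −0.899 for GCT, the reverse of their own direction. The 3 windows themselves would not pass the limit of 1005, with poly(A)+ values down to 852 (DML1), 677 (SDG25) and 824 (GCT). Strands with so little poly(A)+ signal were not compared, so the names and medians hold only for strands with more signal.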

How the data were processed

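RNA from 12 libraries (ribo-minus and poly(A)+, induced and uninduced, 3 biological replicates each) was analysed as deposited. The authors deposited a signal for each strand of each 3000-base window, in whole numbers. How the signal was made is not given in the sources used here, and read numbers per value are unknown, so no counting interval is given. CASAVA 1.8.2, TopHat2 2.0.9, Cufflinks 2.1.1, Cuffdiff and TAIR10 are named in the submitters' processing notes. Windows were placed on the RefSeq annotation of TAIR10.1, on which every window ends within its chromosome. Groups and replicate numbers are from the labels.

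The members and lists were chosen with earlier results of these data known. Changes were estimated with limma 3.58.1 (R 4.3.3; lmFit, eBayes with trend) on log2(value + 1), without rescaling, over strands with signal in 3 or more fitted libraries. P values were adjusted by Benjamini-Hochberg over all strands, with a threshold of 0.05. Knockdown was fitted on the 6 libraries of a fraction, and the fraction contrasts and interaction on 12 libraries with 4 group means. The fits were tested on simulated data. Tables used Python 3.11.15, pandas 2.3.3, numpy 2.4.6 and matplotlib 3.10.9.

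Named were the 3 windows on both strands, listed genes past the threshold, and the 3 strands with the most similar pattern. Windows named in the account of distance, the marker PIN2, and DME, SDG2 and CCT were chosen after their values were seen. Ribo-minus and poly(A)+ libraries of the same number share their total RNA, and their deviations from group means correlated by 0.08 to 0.40, each best with its own number. Induced and uninduced libraries of the same number share only a number (r of −0.09 to 0.09). Alternatives were no filter, a stricter filter, median-ratio scaling, no trend, a pseudocount of 0.1, a common floor, summed strands, the replicate block, knockdown fits on all 12 libraries, and leaving out each library in turn.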

Additional observations from a re-analysis of the deposited data

How the results depend on the processing

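Under no alternative did SDG25 or GCT pass the threshold after knockdown or in the interaction, and DML1 passed only in poly(A)+ RNA with the common floor (−0.95, adjusted p = 0.0328). The replicate block changed no call of the 3 genes (DML1 in poly(A)+ RNA −1.02, adjusted p = 0.121). Median-ratio scaling raised the ribo-minus over poly(A)+ difference, with that of all strands, to 2.77 (DML1), 3.54 (SDG25) and 3.44 (GCT) in induced and to 2.95, 3.28 and 3.23 in uninduced seedlings, while the median of all strands moved to 0.04 and 0.03.

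Strands called after knockdown in poly(A)+ RNA (136) became 229 with no filter, 262 with the stricter filter, 262 with the common floor, 64 with the replicate block, 17 with all 12 libraries, and 68 to 202 when 1 library was left out. In ribo-minus RNA 5 became 40 with no filter, 2 with median-ratio scaling, 8 without the trend, 10 with summed strands, 10 with the replicate block, 12 with all 12 libraries, 33 with the common floor and no unseparated library, and 3 to 61 with 1 library left out. The interaction's 6 became 10 without the trend, 17 with the floor and no unseparated library, and 3 to 41 with 1 library left out. The floor with no unseparated library, and in the account of distance its omission, the scaling and the limit on each fraction, were added after seeing the data. The causes were not tested.

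The opposite strand's fraction difference, from values mostly at 0, changed sign at DML1 and, in uninduced seedlings, at GCT. At DML1 it was −0.42 in induced seedlings, 0.10 with median-ratio scaling and −2.81 to 2.39 with 1 library left out. In uninduced seedlings it was 1.14 (−2.82 to 3.97 with 1 left out) at DML1 and 1.02 (−2.75 to 3.77) at GCT.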

Other observations

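DML1 transcripts are known in Arabidopsis to be low in mutants of DNA methylation, so the genes of that list were read beside it, after their values had been seen. Of 7 window strands of CMT3, AGO6, DCL3, IDN2, SPT5L and MET1, 1 had a log2 change above 0 after knockdown in poly(A)+ RNA and 1 in ribo-minus RNA. Their medians were −0.25 and −0.32, and 0 passed the threshold. MET1 is among the 7 with both of its windows, and the windows of DCL3 and IDN2 share the strand with a second gene. Of all strands, 46.9% were above 0 in poly(A)+ RNA (median −0.03) and 61.7% in ribo-minus RNA (median 0.20). Over strands with a mean signal of at least 1005 the medians were −0.08 in poly(A)+ and 0.15 in ribo-minus RNA. Without the unseparated library 0 of the 7 were above 0 in ribo-minus RNA (median −0.58), against 39.9% of all strands (median −0.12). All strands include opposite strands with little signal. Over the 2070 strands above 1005 in 3 or more libraries, with lower values raised to 1005, the median without that library was −0.18. The share of those strands above 0 is not given, so the 0 of 7 has no matched share. The MET1 window at the 3' end held 14435 in induced and 19581 in uninduced poly(A)+ libraries (means, n = 3 each; limma log2 change −0.45 ± 0.10 SE, adjusted p = 0.0531). In ribo-minus libraries it held 3426 in induced and 5111 in uninduced seedlings (−0.54 ± 0.46, adjusted p = 0.960). None of these changes passed the threshold in the main fits, nor did that of DML1, and whether they are related was not tested.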
